A study of Danio rerio with 3 samples.

Results

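The cells described here are the microglia and macrophages of the adult zebrafish telencephalon, picked out of a droplet single-cell RNA dataset by 6 genes. A cell was taken when it had unique molecular identifiers (UMIs, each of which marks a captured RNA molecule) of at least 2 of *mpeg1.1*, *c1qa*, *c1qb*, *c1qc*, *csf1ra*, and *csf1rb*, and at least 3 UMIs of these genes in total. The cells were thus chosen by their measured UMIs of these genes. This gate held 129 of the 19102 cells with at least 200 genes and at most 10% mitochondrial UMIs. All fish were 12 weeks old and carried Tg(Sox2:gfp), in which *sox2* regulatory sequence drives GFP in neural stem cells and progenitors, in an AB background. All were kept in the γ-secretase inhibitor LY-411575 (LY) before dissection, for 24 hours by the study's methods and for 48 hours by the deposited description. On each of 3 days the telencephala of 20 fish were pooled. By the study's methods the olfactory bulbs were taken off and each hemisphere was cut so that the tissue was enriched for pallium. After dissociation, GFP-positive and GFP-negative live cells were sorted and combined in equal amounts, giving 3 replicate libraries. No untreated or DMSO-treated library was analysed here, so every value describes LY-treated fish and none measures an effect of LY. Because the sort set how many GFP-positive cells entered each library, shares of cells are shares of the sorted mixture and not of the tissue.

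Microglia are the resident macrophages of the brain. They take up dying cells and debris, digest them in lysosomes, and present peptides on class II molecules of the major histocompatibility complex (MHC). Other macrophages sit at the borders of the brain, around vessels and in the meninges, and share most of these genes with microglia. Of the genes of the gate, *mpeg1.1* encodes a pore-forming protein of the phagosome and drives the usual macrophage reporters of zebrafish. The genes *c1qa*, *c1qb*, and *c1qc* encode the chains of C1q, which tags targets for the classical complement pathway. The duplicated genes *csf1ra* and *csf1rb* encode receptors through which macrophages receive survival signals.

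The libraries held 5349 to 8143 barcodes with 12104324 to 15050320 UMIs each. Median depth was 1773 UMIs in gated cells (535 to 8776) and 1624 in the other filtered cells. Between 53 and 71 barcodes occurred in both libraries of a pair, and 2 of the gated barcodes also occurred in another library. The doublet caller marked at most 2 cells per library and was taken not to have worked. Among the gated cells, 8 had doublet scores in the top share of their library, which was 0.8% for each 1000 filtered cells in it. That cut kept 34 of 36, 58 of 62, and 29 of 31 gated cells. Of the other cells it kept 7351 of 7846, 5693 of 5981, and 4934 of 5146. Also, 18 gated cells met the gate of another cell class (11 neuron, 5 oligodendrocyte, and 3 radial glia, with 1 cell meeting more than a single further gate). Nothing in the labels says more about the replicates than their number, but each comes from its own day and fish by the study's methods.

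Gated cells made up 0.694% ± 0.296 (SD, n = 3) of the filtered cells. Replicate 1 held 36 gated among 7882 filtered cells, or 0.457% with an exact Clopper-Pearson 95% interval from 0.320 up to 0.632%. Replicate 2 held 62 among 6043, or 1.03% (0.788–1.31%). Replicate 3 held 31 among 5177, or 0.599% (0.407–0.849%). The intervals are for counting error alone. The interval of replicate 2 lay above that of replicate 1, so these libraries differed by more than counting error. The share follows the gate: it was 0.374% with at least 3 of the 6 genes and 6 UMIs, and 1.14% with at least 2 UMIs of any of the 6.

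The genes of the gate are given as a description, since they chose the cells. *mpeg1.1* (ENSDARG00000055290) UMIs were found in 31, 55, and 28 gated cells of replicates 1, 2, and 3. Its level in the summed gated cells was 9.21, 12.5, and 13.4 UMIs per 10000 UMIs (CP10K). The C1q genes were the other common entries, with UMIs of *c1qb* (ENSDARG00000044612) in 31, 50, and 20 cells, of *c1qc* (ENSDARG00000095627) in 27, 48, and 22, and of *c1qa* (ENSDARG00000044613) in 16, 37, and 12. In all, 125 of the 129 cells had a UMI of a C1q gene. The CSF1 receptors were sparse. *csf1rb* (ENSDARG00000053624) UMIs occurred in 10, 9, and 7 cells and *csf1ra* (ENSDARG00000102986) UMIs in 3, 10, and 3. A gated cell held a median of 6 UMIs of the 6 genes, and 32, 48, 34, and 15 cells had UMIs of 2, 3, 4, and 5 of them.

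**Figure D1:**
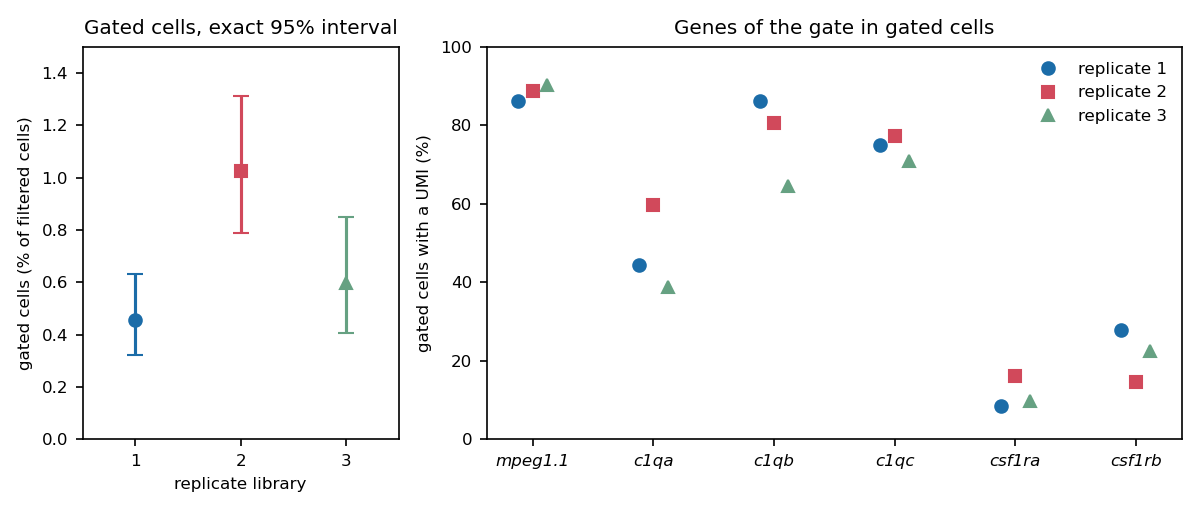
Left, share of gated cells among filtered cells in each replicate library, with exact 95% intervals for counting error. Right, percentage of the gated cells of each replicate with a UMI of each gene of the gate. Replicate 2 has the highest share (1.03%), and *csf1ra* and *csf1rb* were found in fewer gated cells than *mpeg1.1* and the C1q genes in every replicate.

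The gated cells were then compared with all other filtered cells of the same libraries, over genes that the gate did not use. UMIs were summed per replicate, and 14455 genes were tested with edgeR's quasi-likelihood test with the replicate as a block. At an adjusted p below 0.05, 1019 genes (7.05%) were higher in gated cells and 1637 (11.3%) were lower. The median log2 fold change of all tested genes was -0.96. It was -0.86 over the 1923 genes with at least 20 UMIs expected in gated cells, and a fold change of a gene called lower is to be read against that value. Of the called genes 38.4% were higher, but 61.8% were with DESeq2 (1052 higher and 651 lower). Leaving out a library reduced the calls, to 710, 598, and 823 higher and 827, 833, and 986 lower without replicates 1, 2, and 3. DESeq2 size factors in place of TMM raised all log2 fold changes by 0.11 at the median. Genes that go with the genes of the gate from cell to cell had to differ between these sums, so the calls describe the gated cells and are not an independent test of the gate. The size of the largest rises moved with the gate. The log2 fold changes of *cd74a* and *ccl34b.1*, 7.40 and 8.07, were 6.54 and 7.23 with the stricter gate, and 8.98 and 9.01 against cells without any UMI of the 6 genes. Levels are UMIs from the 3′ end and need no division by gene length.

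Genes of leukocyte and macrophage identity were higher in the gated cells: 27 of 28 tested list genes were called higher and none lower, with a median log2 fold change of 6.18 against -0.96 over all genes. *ptprc*, which encodes the pan-leukocyte protein CD45, was at 2.03, 2.30, and 2.91 CP10K in the gated cells of the 3 replicates and at 0.0369, 0.145, and 0.0574 in the other cells (log2 fold change 4.93 ± 0.38 SE, adjusted p = 5.41e-37, edgeR). *coro1a*, encoding an actin regulator of leukocytes, was at 8.94, 8.80, and 9.22 CP10K against 0.0423, 0.182, and 0.0742. The transcription factor gene *spi1a* was at 6.64, 5.51, and 7.92 CP10K against 0.0171, 0.0973, and 0.0363, and its partner in macrophage development *irf8* at 2.98, 5.21, and 2.91 against 0.0184, 0.0761, and 0.0439. In the other cells these genes were highest in replicate 2, and without that library the log2 fold changes of *ptprc*, *coro1a*, and *spi1a* were 5.63, 7.24, and 8.06. *hcst*, an adaptor gene of natural killer and myeloid receptors, had 1 UMI in the gated cells and was not called. *tyrobp*, its relative, had none, which allows a level of up to 0.113 CP10K.

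The most abundant RNA of the gated cells, leaving out ribosomal protein and mitochondrial genes and the noncoding *malat1*, belonged to MHC class II presentation. *cd74a*, which encodes the invariant chain of class II molecules, had UMIs in 129 of 129 gated cells. Its level was 178, 155, and 230 CP10K in the 3 replicates and 0.542, 2.22, and 0.995 in the other cells, a 169-fold difference (log2 fold change 7.40 ± 0.41, adjusted p = 2.63e-71, edgeR). Without replicate 2 it was 8.02. The class II gene *si:busm1-266f07.2* (*mhc2daa* in the reference name table) was at 122, 184, and 171 CP10K against 0.539, 3.19, and 0.802, also with UMIs in every gated cell (log2 fold change 7.09, and 7.69 without replicate 2). *cd74b*, the second invariant chain gene, was at 40.2, 42.2, and 51.4 CP10K. Of 25 tested genes of antigen presentation, 18 were higher and none lower, with a median log2 fold change of 3.17. They included the class I light chain gene *b2m* (16.6 ± 0.743 CP10K against 1.35 ± 0.354, SD, n = 3), the class I gene *mhc1zba* (14.3 ± 2.38 against 2.86 ± 0.190), and *ifi30*, which encodes a thiol reductase of the lysosome (13.4 ± 3.32 against 0.145 ± 0.0526). The chaperone gene *calr* and the peptide transporter genes *tap1* and *tap2a* were not called, the latter with 3 and 4 UMIs in all gated cells. The class II genes belong to a multigene family, and the separate levels of near-identical copies are uncertain.

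Several genes of the list of zebrafish microglia were also abundant. *ccl34b.1*, a chemokine gene, was at 104, 104, and 129 CP10K in the gated cells of replicates 1, 2, and 3 and at 0.219, 0.712, and 0.409 in the other cells, a 269-fold difference (log2 fold change 8.07 ± 0.40, adjusted p = 5.55e-88, edgeR). The apolipoprotein gene *apoc1* was at 74.2, 71.3, and 113 CP10K (log2 fold change 8.29 ± 0.39) and *apoeb* at 44.0, 81.5, and 108 (7.16 ± 0.37). *lgals3bpb*, which encodes a galectin-binding protein, was at 59.5, 60.5, and 85.7 (8.66 ± 0.39). *havcr1*, the gene of a receptor for phosphatidylserine on dying cells, was at 8.40, 12.0, and 19.9 (8.20 ± 0.35). All 13 tested genes of the list were higher, with a median log2 fold change of 7.50. They ranged down to *hexb*, the β-hexosaminidase gene that marks microglia in mice, at 1.5 ± 0.297 CP10K in gated cells against 0.657 ± 0.0142 in the others and 1.67 in gated oligodendrocyte precursors (OPCs). Its log2 fold change of 1.19 did not pass the test without replicate 2 (0.94, adjusted p = 0.215, edgeR). The other 7 of the 20 list genes in the files and outside the gate were nearly absent and were not tested. *p2ry12*, a purinergic receptor gene, had 1 UMI in all gated cells, and *p2ry13*, *olfml3a*, *olfml3b*, *tmem119a*, *tmem119b*, and *gpr34b* had none, each allowing up to 0.113 CP10K. Microglia and other macrophages were therefore not separated by these genes, and the cells are called gated cells here.

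**Figure D2:**
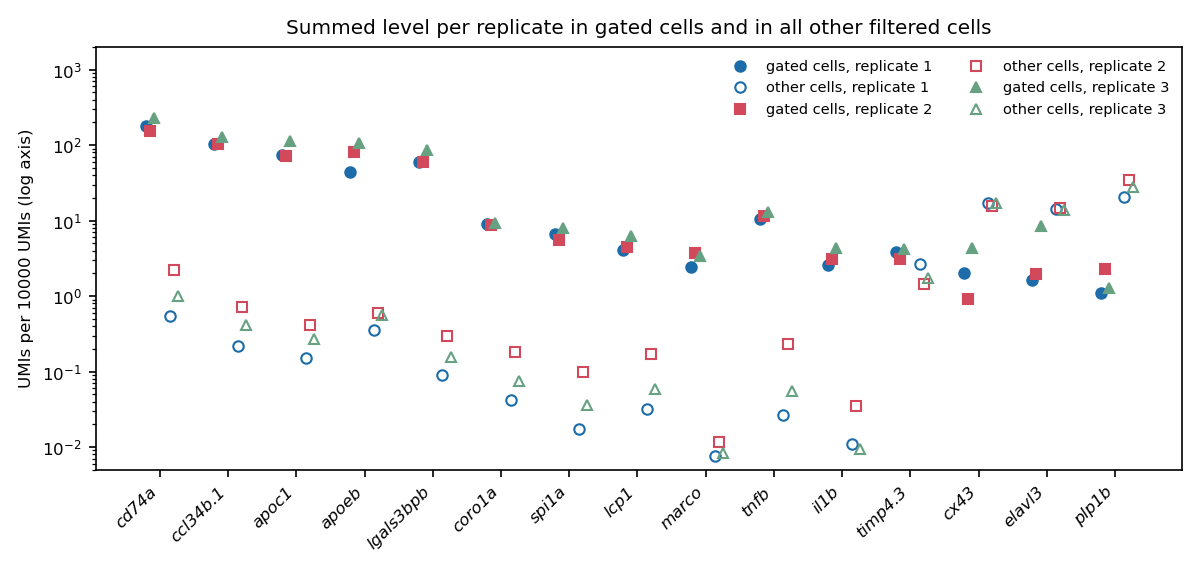
Summed level per replicate, in UMIs per 10000 UMIs on a log axis, of 15 genes in gated cells (filled) and in all other filtered cells (open). The first 11 genes are higher in the gated cells of every replicate, with *cd74a* between 155 and 230 CP10K, *timp4.3* differs little, and *cx43*, *elavl3*, and *plp1b*, genes of other cell classes, are lower in gated cells.

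To compare cells at equal depth, each cell was thinned at random to 1000 UMIs, which left 105 of the 129 gated cells (31, 46, and 28 in the 3 replicates). At that depth, 91.1% ± 3.62 (SD, n = 3) of the gated cells had a *ccl34b.1* UMI and 88.5% ± 1.22 an *apoeb* UMI. Both shares were much lower in gated neurons and radial glia, and what part free RNA has in them was not tested. In gated neurons (median of 1707 UMIs per cell before thinning), the shares were 2.23% ± 1.35 and 1.74% ± 0.592, and in gated radial glia (median of 2048) 1.48% ± 1.03 and 4.82% ± 0.778. *ptprc* was found in 19% ± 2.69 of gated cells after thinning and in 38.1% without it, so at this depth a cell without a *ptprc* UMI cannot be told from a cell with a low level.

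Genes of border and peripheral macrophages were also present. Of 11 tested list genes, 8 were higher and 2 lower. *marco*, a scavenger receptor gene, was at 2.44, 3.75, and 3.4 CP10K against at most 0.0118 in the other cells (log2 fold change 8.36 ± 0.41, adjusted p = 3.85e-91, edgeR). The macrophage gene *mfap4* was at 3.39, 5.82, and 2.59 CP10K, and *ccr2*, a chemokine receptor gene of monocytes in mice, at 2.44, 1.91, and 2.26. *lgals2a*, a galectin gene, was at 11.9 ± 3.89 CP10K, but gated OPCs averaged 15.7, with 3.07, 15.7, and 28.3 in the 3 replicates. Outside the list, the mannose receptor gene *mrc1b* was at 8.26, 6.58, and 5.18 CP10K, whereas *mrc1a*, *lyve1a*, and *lyve1b*, genes of perivascular and lymphatic-type cells on the list, had no UMI in any gated cell. *timd4* and *cd36* were lower in gated than in other cells. *timd4* stood at 12.2 CP10K in gated oligodendrocytes, and *cd36* at 0.707 in gated neurons. These falls rested on 7 and 1 UMIs in gated cells, and that of *timd4* was lost without replicate 2 or 3 (adjusted p = 0.0571 and 0.0877, edgeR) and that of *cd36* without replicate 1 or 2 (0.153 and 0.497).

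The rule for the largest rises named 12 genes with at least 50 UMIs in gated cells. Besides *lgals3bpb*, *marco*, *mrc1b*, and the chemokine gene *ccl34a.4*, these were the membrane protein gene *ms4a17a.10* (17.3, 22.8, and 29.1 CP10K), the transcription factor gene *mafbb* (4.47, 5.89, and 5.99), and 6 genes with clone-based names. *BX649485.1* was at 10.4, 5.59, and 7.60 CP10K, *BX004816.2* at 4.88, 3.6, and 4.04, and *AL928650.1* at 2.57, 2.91, and 2.59. The largest log2 fold change, 9.51, was that of *BX649485.4*, at 1.35, 1.68, and 24.1 CP10K. It rested largely on a single cell, which held 141 of the 181 UMIs. The value was 11.2 without replicate 2 and 7.74 without replicate 3. *BX649485.2*, with 111 UMIs in 17 cells, and *si:dkey-5n18.1*, with 50 UMIs in 14 cells, were likewise carried by few cells. So was *ccl34a.4*, with 72.3% of its UMIs in 5 of 19 cells. Its log2 fold change was 8.82, rising to 9.57 without replicate 3 and falling to 6.01 with the stricter gate. The 3 genes with the same clone name may be near-identical copies, so their separate levels are uncertain. The largest falls belonged to genes of the oligodendrocyte lineage and other cells: *si:dkey-200l5.4* (log2 fold change -5.67), *si:ch211-132g1.3* (-5.16), *BX088562.1* (-4.57), *mpz* (-4.47), *grm2b* (-4.26), and *aplnra* (-4.16). They rested on 1 to 17 UMIs in gated cells. The value of *si:ch211-132g1.3* was -5.84 without replicate 2, that of *grm2b* -5.31 without replicate 3, and that of *aplnra* -3.34 without replicate 1. The only UMI of *si:dkey-200l5.4* was in replicate 2, so no fold is given without that library.

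Complement genes other than those of the gate were few. *cfp*, the gene of properdin, which stabilizes the alternative pathway, was at 2.71, 2.45, and 1.78 CP10K in gated cells against 0.0512, 0.0377, and 0.0228 (log2 fold change 5.93 ± 0.42). *itgb2*, the β chain of the complement receptor integrins, was at 4.74, 2.91, and 3.56 CP10K against 0.0936, 0.0816, and 0.111 (5.24 ± 0.31). The C3 genes of the list, *c3a.1*, *c3a.2*, *c3a.3*, *c3b.1*, and *c3b.2*, had no UMI in the gated cells. *c7b* and *cd59* were called lower, and both are abundant elsewhere: *cd59*, an inhibitor of the membrane attack complex, stood at 431 CP10K in gated oligodendrocytes, while its 2.04 in the macrophage-gated cells was close to the 1.74 of radial glia and the 2.28 of neurons.

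Lysosomal genes were mostly higher. Of 37 tested, 23 were higher and 4 lower, with a median log2 fold change of 1.85. The summed list was at 106, 190, and 164 CP10K in gated cells of the 3 replicates and at 97.8, 99.4, and 79.6 in gated OPCs. *psap*, which encodes the precursor of the saposins, cofactors of sphingolipid breakdown, was at 24.7, 46.1, and 39 CP10K in gated cells and 4.07, 4.49, and 4.48 in the others (log2 fold change 2.98 ± 0.30, adjusted p = 4.83e-22, edgeR). *npc2*, encoding a cholesterol carrier, was at 7.86, 15.3, and 15.2 against 1.41, 2.13, and 2.24. The asparaginyl endopeptidase gene *lgmn* was at 5.42, 11.2, and 13.9 against 0.842, 1.03, and 1.07. Larger differences were those of *ctss2.2*, a cathepsin S gene (5.37 ± 1.15 CP10K against 0.0253 ± 0.0225), and of *grna*, a granulin gene (10.1 ± 3.48 against 0.0480 ± 0.0407). The cathepsin genes *ctsla* and *ctsf* were lower (*ctsla* not without replicate 1 or 3, adjusted p = 0.22 and 0.131, edgeR), and *cd63*, which had 358 UMIs, was not called (13.8 ± 4.12 CP10K against 9.88 ± 1.06). Levels of *psap*, *npc2*, and *lgmn* were lowest in replicate 1. Of 24 tested genes of the vacuolar proton pump, which acidifies the lysosome, 7 were higher and 2 lower, with a median log2 fold change of 0.06 (0.30 with genes at 0 UMIs set to their upper limit) against -0.96 over all genes. Among its genes, *atp6v0e1* was at 8.55 ± 1.13 CP10K against 1.84 in the other cells. The summed pump list averaged 42.7 CP10K in gated cells and 48.1 in gated neurons.

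Among genes of lipid handling, 8 of 22 tested were higher and 5 lower, beside 7.05% and 11.3% of all tested genes. Their summed level was 147, 196, and 271 CP10K in gated cells and 102, 129, and 139 in gated radial glia. Besides the apolipoproteins, *alox5ap*, which presents arachidonate to 5-lipoxygenase for leukotriene synthesis, was at 6.23, 6.74, and 9.38 CP10K against at most 0.0353 (log2 fold change 8.32 ± 0.34). The fatty acid binding protein gene *fabp11a* was at 4.74, 8.19, and 5.50 CP10K, and *abca1b*, which exports cholesterol to lipoproteins, at 2.17, 2.22, and 1.13. *fabp7a*, a radial glia gene, was lower. The gene *ch25h*, encoding cholesterol 25-hydroxylase, lay outside the list and was singled out after its values had been seen, at 18.3, 21.5, and 26.5 CP10K against 0.0389, 0.131, and 0.0675 (log2 fold change 8.20 ± 0.36, adjusted p = 2.3e-111, edgeR). Of the genes for phagocytic and scavenger receptors, 8 of 26 were higher and 5 lower, beside the same shares of all tested genes. *fcer1gl*, an Fc receptor γ chain gene, was at 14.2, 13.4, and 19.1 CP10K, and *mertka*, a receptor for dying cells, had 16 UMIs and was higher. The engulfment adaptor gene *elmo1* was at 1.85 ± 0.375 CP10K against 1.06 in the other cells and was not called.

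Cytokine and chemokine genes were represented by few members at high levels. Of 32 tested, 17 were higher and 4 lower, and 22 of the 56 list genes in the files had no UMI in gated cells, among them *il6*, *il10*, and *il34*. *tnfb*, of the tumor necrosis factor family, was at 10.4, 11.5, and 13.1 CP10K against 0.0266, 0.228, and 0.0548 (log2 fold change 7.24 ± 0.34, adjusted p = 3.32e-99, edgeR). Its paralog *tnfa* had 3 UMIs in the gated cells, and its call as higher was lost without replicate 3 (adjusted p = 0.233, edgeR). *il1b*, the interleukin-1β gene, was at 2.57, 3.14, and 4.37 CP10K against 0.0109, 0.0353, and 0.00928 (7.48 ± 0.38). Without replicate 2 the log2 fold changes of *tnfb* and *il1b* were 8.15 and 8.26. After thinning, 42.9% ± 3.90 of gated cells had a *tnfb* UMI and 21.4% ± 3.18 an *il1b* UMI, against 0.190% and 0.0371% of gated neurons. The chemokine gene *ccl35.1* was at 14.5, 9.87, and 7.60 CP10K. Among receptors, *cxcr4b* was at 7.45, 9.26, and 2.43 CP10K, *cxcr3.2* at 3.25, 3.06, and 3.56, and *il10ra* at 5.69, 5.89, and 4.53. All 6 tested genes of the phagocyte NADPH oxidase, which produces superoxide, were higher, led by *rac2* (5.31 ± 1.05 CP10K against 0.128), *cyba* (3.48 ± 0.384 against 0.0990), and *ncf1* (3.09 ± 0.879 against 0.0366). Of 22 tested innate sensors and NF-κB genes, 13 were higher and none lower, with the inflammasome adaptor gene *pycard* at 2.03, 2.30, and 2.26 CP10K against at most 0.0290. The NADPH oxidase and innate sensor lists were not particular to the gated cells, since cells with *mpeg1.1* alone, described at the end, had similar or higher sums. The cytokine list summed to 169 CP10K in gated cells (mean of 3 replicates) and 144 in the pooled *mpeg1.1*-only cells, but through different genes. There *ccl34b.1* was at 6.27 against 110 in pooled gated cells and *il1b* at 1.05 against 3.27. By contrast, *ccl19a.1* was at 38.8 against 0.0751 and *ccr9a* at 20.6 against 2.93. Interferon response genes were at low levels, with 6 of 14 higher, 1 lower, and a summed level of 2.75 to 6.37 CP10K in gated cells.

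Of 39 tested transcription factor genes of macrophages, 20 were higher and 4 lower. *cebpb*, a factor of myeloid activation, was at 47.7, 18.5, and 26.5 CP10K against 0.307, 0.631, and 0.269 (log2 fold change 6.21 ± 0.34, and 6.87 without replicate 2). Early response genes, which are also induced when tissue is dissociated, were higher too: 19 of 25 were higher and none lower, with a median log2 fold change of 2.04. Their summed level was 209, 191, and 189 CP10K in the gated cells and 56.3 on average in the others. *fosab* was at 53.0, 40.3, and 47.9 CP10K against 15, 16.3, and 11.5 (log2 fold change 1.68 ± 0.29, adjusted p = 1.43e-07, edgeR), and *egr1* at 18.6, 11.4, and 12.8 against 2.58, 1.64, and 1.34. *cebpb* was highest in the same replicate as *fosab* and *egr1*. What part dissociation has in these levels was not tested. Of 10 tested iron handling genes, only *hmox1a*, which breaks down heme, was called (2.57, 1.91, and 0.485 CP10K against 0.152, 0.203, and 0.211). That is near the 7.05% called higher among all tested genes. The summed level of the iron list was 8.69 CP10K in gated cells and 8.32 in the others. The hemoglobin genes were lower in gated than in other cells, and in both they were highest in replicate 2, where *hbba1* stood at 7.04 and 77.2 CP10K.

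**Figure D3:**
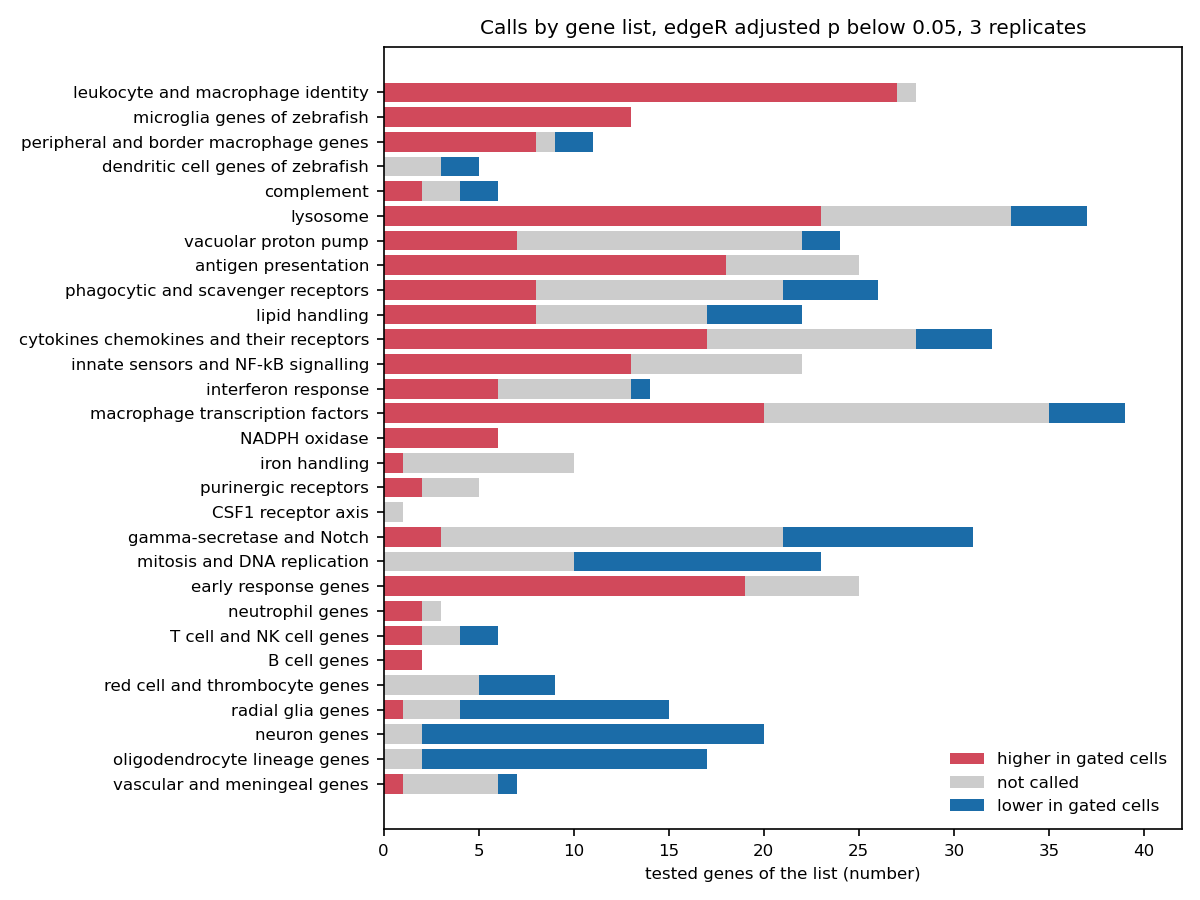
Number of tested genes per gene list that were called higher, not called, or called lower in gated cells than in other filtered cells (edgeR, adjusted p below 0.05, 3 replicates). Identity, microglia, and NADPH oxidase lists hold almost only genes called higher, and the lists of neurons (18 of 20) and the oligodendrocyte lineage (15 of 17) mostly genes called lower, beside 7.05% higher and 11.3% lower among all tested genes.

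Because γ-secretase is the target of LY, genes of the enzyme and of the Notch pathway were listed too. *psenen*, which encodes a subunit of the enzyme, was at 0.940 ± 0.161 CP10K in gated cells against 0.831 in the others and was not called. *mfng*, which encodes a Fringe glycosyltransferase that modifies Notch receptors, was at 1.35, 5.05, and 5.34 CP10K against 0.0123, 0.103, and 0.0363 (log2 fold change 6.34 ± 0.34, adjusted p = 3.36e-74, edgeR). Without replicate 2 the log2 fold change was 6.95. Gated radial glia, neurons, OPCs, and oligodendrocytes averaged at most 0.0398 CP10K of it. *rbpjb*, encoding the DNA-binding partner of the Notch intracellular domain, was at 1.90, 1.23, and 1.13 CP10K against 0.382, 0.418, and 0.414 (1.75 ± 0.37), and *notch2*, with 11 UMIs in gated cells, was also higher, though not without replicate 1 or 2 (adjusted p = 0.159 and 0.136, edgeR). These 3 higher genes of 31 tested are a share near the 7.05% called higher among all tested genes. A further 10 of the 31 were lower, beside 11.3% of all tested genes. Among them were the ligand gene *dla* and the Fringe gene *lfng*, which stood at 12.7 and 7.67 CP10K in gated radial glia. Genes of mitosis and DNA replication were lower in 13 of 23 cases and higher in none. *pcna* UMIs were found in 19 gated cells, 15 of them in replicate 2.

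Genes of other cell classes were mostly lower, as the comparison contains those classes. Of 20 tested neuron genes 18 were lower, of 17 oligodendrocyte lineage genes 15, and of 15 radial glia genes 11. The summed level of the radial glia list was 34.3 to 62.8 CP10K in gated cells against 377 in gated radial glia, that of neurons 16.1 to 31.4 against 130, and that of the oligodendrocyte lineage 4.69 to 6.28 against 851 in gated oligodendrocytes. For radial glia genes this level included *glula*, the glutamine synthetase gene, at 30.3 ± 5.49 CP10K in gated cells, which was not called against the 32.3 of the other cells. *gfp* itself had 1 UMI in the gated cells and was not called, while *sox2* had 10 and was lower. *timp4.3*, the gene of a metalloproteinase inhibitor and a marker of some quiescent neural stem cells of this tissue, was the exception. It was at 3.79, 3.14, and 4.21 CP10K in gated cells and at 2.69, 1.47, and 1.74 in the others (log2 fold change 0.91 ± 0.28, adjusted p = 0.00981, edgeR). Gated radial glia had 12.6, 6.49, and 6.0 CP10K, but neurons, OPCs, and oligodendrocytes at most 0.417 in any replicate. After thinning, 26.6% ± 5.43 of gated cells and 40.2% ± 9.13 of radial glia had a *timp4.3* UMI, against 1.18% ± 0.50 of neurons. The difference between gated and all other cells was not stable. It did not pass the test without replicate 2 or 3 (adjusted p = 0.172 and 0.0565, edgeR), without the block (0.055), with DESeq2 (0.0696), or without gated cells that met another gate (0.0809, log2 fold change 0.71). Of those cells, 3 met the radial glia gate, and the part of radial glia RNA in the level of *timp4.3* was not tested further. *cx43*, a gap junction gene with 72.0 CP10K in radial glia, was at 2.03, 0.918, and 4.37 in the gated cells. Its log2 fold change of -3.03 was -4.61 without gated cells that met another gate and -4.63 without the highest doublet scores. Of other blood cells, the neutrophil gene *mpx*, the T cell gene *cd8a*, and the B cell genes *cd79a* and *cd79b* had no UMI, but other genes of their lists did. UMIs were found for 8 of 13 neutrophil genes, and 2 of 3 tested were higher (*nccrp1* and *s100a10b*). For T and NK cells, 7 of 20 genes had UMIs, and of 6 tested 2 were higher (*tagapa* and *ccr9a*) and 2 lower. For B cells, 2 of 9 genes had UMIs, and the 2 tested, *cd22* and *blnk*, were higher. *cd22*, an inhibitory receptor gene of B cells in mammals, had 39 UMIs in 31 cells. The chemokine receptor gene *ccr9a* had 78 UMIs in 42 cells.

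Abundant genes of the actin cytoskeleton were higher as well. *tmsb4x*, encoding a thymosin that binds actin monomers, was at 124, 101, and 130 CP10K against 27.0, 27.4, and 28.7, *actb2* at 65.4, 70.3, and 63.2 against 12.2, 17.7, and 20.2, and *pfn1*, the profilin gene, at 44.7, 39, and 35.8 against 0.50, 2.42, and 1.03. Also among the most abundant genes were *zgc:162730* (65.2 ± 6.34 CP10K against 1.08 ± 0.724) and *CR318588.4* (106 ± 10.7 against 5.56 ± 2.38). *eef1a1l1*, a translation elongation factor gene, was at 43.2 ± 3.27 CP10K against 29.9 ± 5.76 and was not called. The noncoding *CR383676.1* (ENSDARG00000099970, *malat1* in the reference name table) was the most abundant RNA of both groups. It took 8.67% of the UMIs of gated cells and 18.2% of those of the other cells, and its log2 fold change of -1.12 ± 0.40 (adjusted p = 0.0319, edgeR) lies near the median of genes with at least 20 expected UMIs. Without replicate 1 or 2 it did not pass the test (adjusted p = 0.776 and 0.779).

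Most gated cells shared the abundant microglia genes, at levels that varied widely. UMIs of all 4 of *ccl34b.1*, *apoeb*, *apoc1*, and *lgals3bpb* were found in 107 of the 129 cells, and 4 cells had none of them. At 1000 UMIs per cell, a gated cell held a median of 12 *ccl34b.1* UMIs, with 1 at the 10th percentile and 24 at the 90th. For *apoc1* the median was 8 (0.4 to 18.6), for *apoeb* 5 (0 to 20), and for *cd74a* 20 (8.4 to 31.6). Across the 105 cells, *ccl34b.1* rose with *apoc1* (Spearman's rho 0.637, and 0.424 to 0.754 within the replicates) and with *apoeb* (0.486, and 0.331 to 0.581). It varied less with *cd74a* (0.222, and 0.0932 to 0.308). *il1b* and *tnfb* had a rho of 0.0593 (-0.0724 to 0.234). Cells of a replicate share a library, the counts are small, and these coefficients are descriptions without a test. The antigen presentation list gave a median of 34 UMIs per 1000 in gated cells (3 to 67), against 2 in gated radial glia and OPCs and 1 in neurons and oligodendrocytes.

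**Figure D4:**
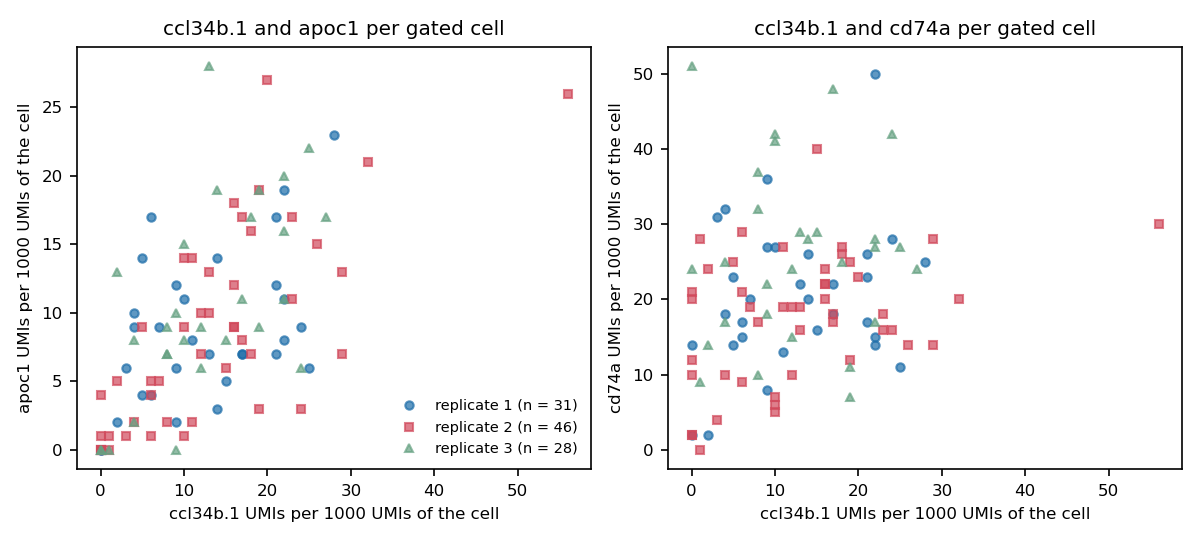
UMIs of *ccl34b.1* against those of *apoc1* (left) and *cd74a* (right) in the 105 gated cells with at least 1000 UMIs, each thinned to 1000 UMIs, with 31, 46, and 28 cells of replicates 1, 2, and 3. *ccl34b.1* and *apoc1* vary together (rho 0.637) and *ccl34b.1* and *cd74a* less so (rho 0.222).

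A few gated cells stood apart, and they were chosen after their values had been seen. Of the 9 cells without a *ccl34b.1* UMI (1, 6, and 2 in the 3 replicates), 7 also had no *apoeb* UMI. The 9 cells had a median of 2099 UMIs, with a range of 540 to 8776. Their summed *cd74a* level was 109 CP10K, against 187 in the 120 cells with *ccl34b.1*. *s100a10b*, a gene on both the border macrophage and the neutrophil list, was confined to 7 gated cells (2, 5, and 0 in the 3 replicates) with 87 UMIs in all. These cells were deep, with a median of 5110 UMIs. All 7 also had UMIs of *grn1* and *ccl35.1*, 5 of *f13a1b*, the gene of a coagulation factor XIII chain, and 5 of *si:dkey-5n18.1*. Among all 129 gated cells, *grn1* UMIs were found in 21 and *ccl35.1* UMIs in 57. Only 1 of the 7 cells had an *apoeb* UMI, but 4 had *ccl34b.1* UMIs. *f13a1b* UMIs were found in no other gated cell. The calls of *s100a10b*, *f13a1b*, and *grn1* as higher therefore rested on few cells: the 5 cells with the most *s100a10b* held 89.7% of its UMIs, and the 5 with the most *grn1*, which need not be the same cells, held 84.4% of its 257 UMIs. With the study's filter on genes per UMI, *s100a10b* and *f13a1b* did not pass the test (adjusted p = 0.284 and 0.639, edgeR), and *s100a10b* did not with DESeq2 either (0.235). A single one of the 7 cells also met another gate, and 1 was among the highest doublet scores. Depth differed between these cells and the rest, and its part in the genes found in them was not tested.

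The gate also has a boundary, given here as a description. Just inside it, 20 gated cells had exactly 3 UMIs of the 6 genes, and 18 of these had *ccl34b.1* and 15 *apoeb*. Just outside, 14 cells had 1 UMI each of 2 genes, and 13 of these had *ccl34b.1* and 12 *apoeb*. A different set was formed by 40 cells with at least 3 UMIs of *mpeg1.1* and none of the other 5 genes. Replicates 1, 2, and 3 held 6, 29, and 5 of them, with a median of 1280 UMIs per cell. Like the gated cells, all 40 had UMIs of *cd74a* (226 CP10K, against 179 in the gated cells) and *cd74b* (62.5 against 43.8), and 29 had *lcp1*. Several lists had similar or higher summed levels in these cells, pooled, than in the gated cells, as a mean of 3 replicates. These were 360 against 313 CP10K for antigen presentation, 16.4 against 16.3 for innate sensors, and 18.8 against 13.7 for the NADPH oxidase. The lysosome list was at 124 against 153, with 106 to 190 in the gated replicates. Lists with lower sums included identity (409 against 593), lipid handling (33.6 against 205), and phagocytic and scavenger receptors (16.0 against 41.0). The identity list holds *ccl34b.1*, *apoeb*, and *lgals3bpb*, which are also on the microglia list, so the sums of these lists overlap. These genes were at 6.27, 4.53, and 9.75 CP10K in the *mpeg1.1*-only cells against 110, 77.3, and 66.1 in pooled gated cells. The identity sum without them was not compared. Early response genes (89.5 against 196.5), transcription factors (75.1 against 108), and border macrophage genes (16.2 against 32.2) were lower too. The summed microglia list was also lower, at 32.2 against 384 CP10K. Only 7 had *ccl34b.1*, 4 *apoeb*, 4 *apoc1*, and 5 *lgals3bpb*, and 31 had none of these 4 genes. Of the 40 cells, 22 had UMIs of *siglec15l* (13.4 CP10K), a gene from the list of dendritic cell genes of zebrafish, which had none in the gated cells (0 of 129, which allows a share of up to 2.33%). *hepacam2* of the same list was found in 21 of the 40 and in 2 of the 129, and *id2a* in 30 of the 40 (16.7 CP10K) and 36 of the 129 (1.84 CP10K). The chemokine gene *ccl19a.1* had 223 UMIs in 21 of these cells and 2 UMIs in a single gated cell. The chemokine receptor gene *ccr9a* was at 20.6 CP10K in them and at 2.93 in the gated cells. *grn1* was found in 25 of the 40 (21.6 CP10K) and 21 of the 129 (9.65 CP10K). *flt3* and *batf3*, genes of dendritic cell development, had 4 and 7 UMIs in them. These 40 cells count among the other filtered cells in the comparison above, so levels of *cd74a* and other shared genes outside the gate are in part theirs. This set was described after its values had been seen, and no name was given to it.

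**Figure D5:**
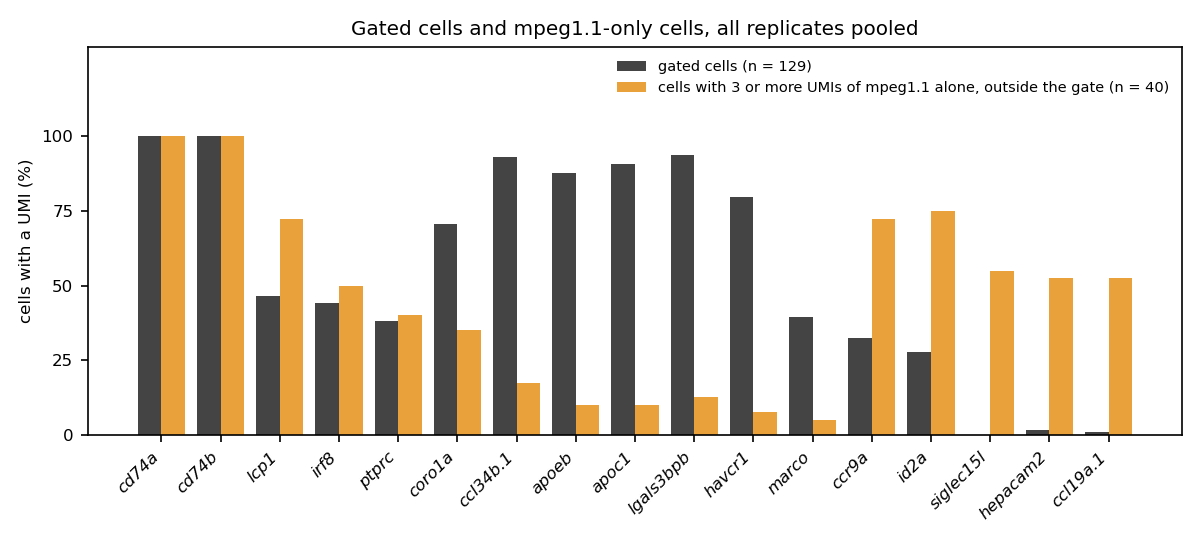
Percentage of cells with a UMI of each gene among the 129 gated cells and the 40 cells outside the gate that had at least 3 UMIs of *mpeg1.1* alone, all replicates pooled and not thinned (median of 1773 and 1280 UMIs per cell). *cd74a* and *cd74b* were found in all cells of both sets, *ccl34b.1*, *apoeb*, *apoc1*, and *lgals3bpb* mostly in gated cells, and *siglec15l*, *hepacam2*, and *ccl19a.1* mostly in the *mpeg1.1*-only cells.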

How the data were processed

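Single-cell 3′ libraries (10x Genomics, v2) were made from sorted telencephalon cells of LY-treated fish. The authors demultiplexed the reads, mapped them to GRCz11 with Ensembl genes, and deposited UMI counts per gene and cell from Cell Ranger 3.0.1. These counts, 1 matrix per library, were used as deposited. Such counts are of captured 3′ ends and are not normalized, and depth per library is given with the results. Of 29077 gene IDs in the files, 26441 were found in the reference name table. Symbols are those of the files.

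Cells with at least 200 genes and at most 10% of UMIs from symbols starting with mt- were kept. The gate, the gene lists, and the tests were chosen with earlier results of these data known. UMIs were summed per replicate over gated cells and over all other filtered cells, giving 6 sums. They were tested in edgeR 4.0.16 (R 4.3.3) with TMM scaling, filterByExpr, the quasi-likelihood test, the replicate as a block, and Benjamini-Hochberg adjustment over all tested genes at 0.05. Gated and other cells of a replicate share fish, day, and library, which is the source of the pairing, and the deviations of their sums from the group means correlated at 0.128, 0.1, and 0.0417. The 6 genes of the gate stayed in the library sizes and were not tested. The test was also run on simulated counts with 50 genes at each of 4 fold sizes. These had a fixed spread and no replicate effect, so they do not measure error rates in these data. Shares of cells were computed after random thinning to 1000 UMIs (Python 3.11.15, scanpy 1.11.5). A gene with 0 UMIs in gated cells was given the upper limit of 3 UMIs over all gated cells. Intervals and limits cover counting error only.

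Radial glia, neurons, OPCs, and oligodendrocytes used for comparison are cells that met a single gate of their own marker genes. Scrublet doublet scores were used only to leave out the top share of each library, 0.8% for each 1000 filtered cells, as an alternative. Named genes were up to 8 per list with the most UMIs among called and uncalled genes, the 12 largest rises with at least 50 UMIs, the 6 largest falls with at least 50 UMIs expected, and the 15 most abundant genes that are neither ribosomal nor mitochondrial. Other genes named, among them *ptprc*, *spi1a*, *irf8*, *ch25h*, and *grn1*, were chosen after their values had been seen. Alternatives were DESeq2 1.42.0, its size factors in edgeR, no filter on low counts, no block, each replicate left out, stricter and looser gates, other sets of cells, and other thinning depths. Omitting *CR383676.1* was added after seeing the data.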

Additional observations from a re-analysis of the deposited data

How the results depend on the processing

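Directions held among all genes called both in the main test and in any of the alternatives. The number of genes higher in gated cells was 1019 and ranged from 598 to 823 when a replicate was left out, and that of genes lower was 1637 and ranged from 827 to 986. Without the replicate block, 990 genes were higher and 1462 lower. DESeq2 called 651 genes lower. The share of gated cells was 0.374% with the stricter and 1.14% with the looser gate, 0.450% when every cell was thinned to 1000 UMIs before the gate, and 0.528 to 0.812% when a replicate was left out. With thinning to 500 UMIs in place of 1000, the shares of gated cells with a UMI were 86.1% for *ccl34b.1*, 79.5% for *apoeb*, 11.4% for *ptprc*, 17.4% for *il1b*, and 14.5% for *timp4.3*. Without thinning they were 38.1% for *ptprc*, 35.0% for *il1b*, and 38.7% for *timp4.3*. With at least 2 UMIs required they were 82.4% for *apoeb*, 2.15% for *ptprc*, 6.35% for *il1b*, and 8.76% for *timp4.3*. With the stricter gate they were 90.3% for *apoeb* and 14.5% for *ptprc*. Leaving out a replicate gave 89.9 to 93.2% for *ccl34b.1*, 88.1 to 89.2% for *apoeb*, 17.8 to 20.5% for *ptprc*, 20.2 to 23.2% for *il1b*, and 23.8 to 29.2% for *timp4.3*. Thinning to fewer UMIs or asking for more UMIs per cell lowers such shares by construction, and other causes were not tested. Depth limits the rare genes most, since a gene had to reach 0.113 UMIs per 10000 to give 3 UMIs in all gated cells together.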
